A study of Rattus norvegicus with 15 samples.

Results

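Gap43, Basp1, Tmsb10 and Tmsb4x are 4 genes of growing axons and of the actin cytoskeleton, followed here in rat dorsal root ganglion (DRG) cells treated with dbcAMP. The members were every probe whose symbol in the platform annotation is one of these 4 names, which gave 5 probes of the 5088 on the arrays, and 4 of 4153 named genes. Gap43 had probe 1F11, Tmsb10 had 42E01, Tmsb4x had 10A09, and Basp1 had 28A06 and 52H06. A probe name gives its 96-well plate and well, so the 5 probes came from plates 1, 42, 10, 28 and 52. Cells of L4 and L5 DRGs of juvenile rats were dissociated, plated on poly-L-lysine or on myelin, and incubated with 1.5 mM dbcAMP (dibutyryl cAMP, an analog of cAMP that crosses the cell membrane) for 1, 3, 6, 12 or 18 h, or with medium alone. The shortest time is 1 h in the group labels but 0 h in the treatment protocol, and the labels do not give the substrate of each array. Each of the 15 arrays, 3 for each time, set RNA of treated cells in Cy5 against RNA of untreated cells in Cy3. The dyes were never swapped. A probe that favours a dye by a constant amount would therefore be shifted alike at all times, and such a shift drops out when times are subtracted.

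Gap43 is a membrane-bound protein of the growth cone that binds calmodulin and is phosphorylated by protein kinase C. Basp1, also known as CAP-23 or NAP-22, is a membrane-bound protein of the growth cone with similar biochemistry, and both gather phosphoinositides at the membrane and act there on actin. Tmsb10 and Tmsb4x encode thymosin beta-10 and thymosin beta-4, small proteins that bind actin monomers and hold them in reserve for filament growth. In DRG neurons Gap43 is widely used as a marker of regenerating axons.

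The promoters of the members are shown because the genes were followed under a cAMP analog, and the cAMP response element is the DNA motif through which CREB acts. RefSeq promoter sequences of GRCr8 were at hand for 3 of the 4 genes, and the 250 bases before each start are printed 5′ to 3′ on the strand of the gene. Capitals mark TGACG, the shorter motif within the cAMP response element, or its reverse complement CGTCA.
Basp1, GRCr8 chr2:77594298-77594547, minus strand: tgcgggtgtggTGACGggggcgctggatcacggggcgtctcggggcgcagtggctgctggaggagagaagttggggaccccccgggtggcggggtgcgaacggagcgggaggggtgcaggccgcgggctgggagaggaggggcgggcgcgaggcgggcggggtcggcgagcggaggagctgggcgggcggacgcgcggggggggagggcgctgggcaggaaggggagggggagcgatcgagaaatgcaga
Tmsb10, GRCr8 chr4:106569141-106569390, minus strand: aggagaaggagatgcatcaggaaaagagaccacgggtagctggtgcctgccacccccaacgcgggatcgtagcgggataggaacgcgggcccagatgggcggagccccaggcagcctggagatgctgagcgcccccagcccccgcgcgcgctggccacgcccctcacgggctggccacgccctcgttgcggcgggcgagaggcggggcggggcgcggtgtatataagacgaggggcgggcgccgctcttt
Tmsb4x, GRCr8 chrX:30761361-30761610, plus strand: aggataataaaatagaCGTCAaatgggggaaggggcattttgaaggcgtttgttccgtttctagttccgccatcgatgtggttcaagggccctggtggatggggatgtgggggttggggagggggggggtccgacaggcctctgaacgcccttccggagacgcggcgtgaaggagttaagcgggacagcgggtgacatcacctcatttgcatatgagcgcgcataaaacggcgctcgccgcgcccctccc
TGACG was found once before Basp1, with its first base 239 bases before the start, and once before Tmsb4x, on the opposite strand, 234 bases before the start. It was not in the window of Tmsb10. On both strands, 18.2% of 33469 promoter windows of this length held TGACG, 1.59% held the full palindrome TGACGTCA, which contains it, and 12.9% held the TATA motif TATAAA. Neither TGACGTCA nor TATAAA was in any of the 3 windows. Only exact matches were searched, so other forms of these motifs were not counted, and the lack of TATAAA does not mean that no TATA box is present. Of the bases shown, 76.8% were G or C before Basp1, 71.2% before Tmsb10 and 59.2% before Tmsb4x, against a median of 51.2% over all windows.

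The values are the log2 of the deposited ratio of treated over control, so a value of -1 is a ratio of 0.5 and a value of 0 is no difference. The 5 member probes had a ratio on all 15 arrays, whereas each array lacked the ratio of 28 to 105 probes. The SD of all log2 ratios was over 0.5 on 6 arrays, which were array 3 of 6 h, arrays 1 and 2 of 12 h and all 3 arrays of 18 h, so a wide spread and 18 h cannot be told apart. Plates also differed in level, and at 18 h the plate medians ran from -0.53 to 0.24. Results are therefore given as deposited and, for the 4 genes and the genes named beside them, also centred on the median of the probe's plate on each array where that ends or adds a call. Ratios hold no level, so the cultures could not be checked against the markers of DRG cell types. In these mixed cultures fewer cells of a type and less RNA per cell cannot be told apart.

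After 18 h of dbcAMP the ratios of Gap43, Tmsb10 and Tmsb4x were lower in treated than in control DRG cells as deposited, centred and scaled, and those of Basp1 were lower as deposited. All 5 member probes fell (limma, adjusted p under 0.05 over all probes), where 11.3% of the 5006 probes tested were called lower and 10.6% higher. As deposited, the mean ratio of treated over control at 18 h was lowest for the thymosins, at 0.499 for Tmsb10 and 0.554 for Tmsb4x. Gap43 followed at 0.664, and Basp1 was nearest to 1, at 0.706 for 52H06 and 0.807 for 28A06. Tmsb10 was already at 0.827 at 1 h. Centred on plate medians, where 10.1% of all probes were called lower, 4 of the 5 probes were called. The other was Basp1 52H06, whose ratio became 0.888 (adjusted p = 0.371 by limma). With the arrays brought to a common spread 3 were called, without either Basp1 probe, and Basp1 28A06 lost its call when any array of 18 h was left out. At 12 h, 2 of the 5 probes had fallen, those of Tmsb10 and Basp1 52H06, where 4.77% of all probes were called lower. No member probe was called at 1, 3 or 6 h, where 1.60%, 1.94% and 2.35% of all probes were called lower. Unadjusted, limma gave p under 0.05 for 1 member probe at 1 h, 1 at 3 h and 2 at 6 h, and the test named in the study's methods, after adjustment, called no member at any time. Nothing in the labels says whether the 3 arrays of a time were separate cultures. The p-values therefore cover only array-to-array spread, which may be technical.

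**Figure D1:**
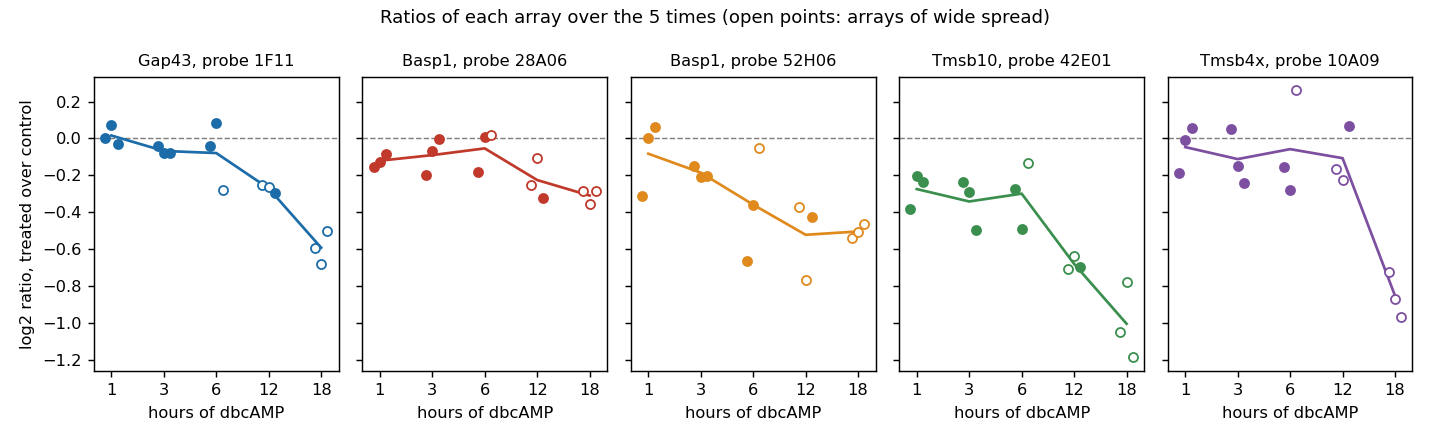
Each panel shows 1 of the 5 member probes, with the log2 ratio (treated over control) on the vertical axis and the hours of dbcAMP, spaced evenly and not to scale, on the horizontal axis. Points are single arrays, open on the 6 arrays of wide spread, and lines join the means. Gap43 and both thymosins have all 3 arrays of 18 h below those of 12 h, while both Basp1 probes overlap between these times.

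Gap43 stayed near 0 through 6 h and was lower at 18 h. Probe 1F11 had log2 ratios of 0.0042, 0.07 and -0.03 at 1 h, of -0.04, -0.08 and -0.08 at 3 h, and of -0.04, 0.09 and -0.28 at 6 h. It had -0.25, -0.26 and -0.29 at 12 h, and -0.59, -0.68 and -0.50 at 18 h. The low array of 6 h was the array of wide spread, while at 12 h the narrow array, at -0.29, lay beside the wide arrays. The 3 values of 12 h spanned very little, with a mean of -0.27 ± 0.02 (SD, n = 3 arrays, adjusted p = 0.0879 by limma). At 18 h the mean was -0.59 ± 0.09 (SD, n = 3, adjusted p = 0.000517 by limma). All arrays of 18 h were below all arrays of 12 h, and below all of 1 h. Centring on the plate medians moved the mean of Gap43 at 18 h to -0.68 (adjusted p = 0.000172 by limma), because plate 1 had a median of 0.09 at that time. From the 3 arrays of 18 h alone, the adjusted p was 0.0889 (limma).

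The probes of Basp1 gave a smaller and less certain fall. Probe 28A06 had log2 ratios of -0.15, -0.12 and -0.08 at 1 h, -0.20, -0.07 and -0.01 at 3 h, and -0.18, 0.01 and 0.02 at 6 h. At 12 h it had -0.25, -0.11 and -0.32 and at 18 h -0.29, -0.36 and -0.28. The values of 18 h lay within the range of 12 h except for a single lower array, and were all below those of 1 h. Its mean at 18 h was -0.31 ± 0.04 (SD, n = 3, adjusted p = 0.0231 by limma), and leaving out array 1, 2 or 3 ended the call, at adjusted p = 0.0694, 0.0933 and 0.0634. Scaling to a common spread gave -0.20 (adjusted p = 0.242). Centred on the plate medians, the same probe was at -0.44 (adjusted p = 0.0046 by limma).

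Probe 52H06 of Basp1 was more variable between arrays at 6 h and 12 h, and fell at 12 h and 18 h. It had log2 ratios of -0.31, 0.0019 and 0.06 at 1 h, -0.15, -0.21 and -0.20 at 3 h, -0.66, -0.36 and -0.05 at 6 h, -0.37, -0.77 and -0.43 at 12 h, and -0.54, -0.51 and -0.46 at 18 h. The arrays of 18 h lay inside the range of the arrays of 12 h. Its mean was -0.52 ± 0.21 at 12 h (SD, n = 3, adjusted p = 0.0192 by limma) while at 18 h it was -0.50 ± 0.04 (SD, n = 3, adjusted p = 0.00992). At 12 h the adjusted p was 0.0538 without array 1 and 0.136 without array 2, and at 18 h it was 0.0507 without array 1. Plate 52 had a median of -0.33 at 18 h and -0.17 at 12 h, and after centring on it 52H06 was at -0.17 (adjusted p = 0.371) for 18 h and -0.35 (adjusted p = 0.114) for 12 h. The 2 probes of this gene thus moved in opposite directions when centred, and their values correlated weakly over the 15 arrays, at r = 0.47, or 0.29 when centred.

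As deposited, Tmsb10 was below 0 on all 15 arrays. Such a probe is uncommon, at 3.66% of the probes with a ratio on every array. It had log2 ratios of -0.38, -0.20 and -0.23 at 1 h, -0.23, -0.29 and -0.50 at 3 h, and -0.27, -0.49 and -0.13 at 6 h. It had -0.71, -0.63 and -0.69 at 12 h, and -1.05, -0.78 and -1.18 at 18 h. The 3 earlier times overlapped each other, all arrays of 12 h were below all of 6 h, as for 6.74% of all probes, and all arrays of 18 h were below all of 12 h. Its means were -0.27 ± 0.10 at 1 h (SD, n = 3, adjusted p = 0.339 by limma), -0.68 ± 0.04 at 12 h (SD, n = 3, adjusted p = 0.00164) and, deepest of the 5 times, -1.002 ± 0.21 at 18 h (SD, n = 3, adjusted p = 2.97e-05). The narrow array of 12 h, at -0.69, was again beside the wide arrays of that time. Only 205 probes of the 5006 tested at 18 h, this one included, had a mean as low. Centred on the median of plate 42, at -0.14, it was at -0.86 (adjusted p = 0.00057 by limma). On array 3 of 6 h, where that plate had a median of -0.41, the centred value of Tmsb10 was above 0, at 0.28.

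Tmsb4x changed late. Its log2 ratios were -0.19, -0.01 and 0.06 at 1 h, 0.05, -0.15 and -0.24 at 3 h, -0.15, -0.28 and 0.26 at 6 h, and -0.16, -0.23 and 0.07 at 12 h. Each of these times had arrays on both sides of 0, and the high value of 6 h was on the array of wide spread. At 18 h the arrays were at -0.72, -0.87 and -0.96, all below every earlier array. The mean was -0.11 ± 0.16 at 12 h (SD, n = 3, adjusted p = 0.641 by limma) and -0.85 ± 0.12 at 18 h (SD, n = 3, adjusted p = 0.000249). Centring on plate 10 gave -0.92 at 18 h (adjusted p = 7.23e-05 by limma), and the adjusted p from the 18 h arrays alone was 0.0511.

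A further beta thymosin on the arrays, Tmsb15b2, was looked up after these values were seen. Its probe 28D08 had log2 ratios of -0.02, 0.02 and -0.09 at 18 h (mean -0.03, adjusted p = 0.864 by limma), and its means at the earlier times ran between -0.05 at 1 h and 0.15 at 3 h. Its difference from Tmsb10 and Tmsb4x was not tested.

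The courses were compared between times, where a constant dye bias cancels. Gap43, Tmsb10 and Tmsb4x were lower at 18 h than at 1 h, with differences of -0.61 (standard error 0.13, adjusted p = 0.0236 by limma), -0.73 (standard error 0.15, adjusted p = 0.0211) and -0.80 (standard error 0.17, adjusted p = 0.0211), where 1.56% of the 4995 probes tested were called lower. For Basp1 the differences were -0.19 at 28A06 (adjusted p = 0.499) and -0.42 at 52H06 (adjusted p = 0.239). All 5 member probes had every array of 18 h below every array of 1 h, against 13.3% of all probes. All 3 calls held without the 3 wide arrays of 6 h and 12 h (adjusted p = 0.014, 0.0188 and 0.00808 by limma). None held without a replicate number. With all arrays of a replicate number left out, the adjusted p lay between 0.116 and 0.278 for Gap43, between 0.159 and 0.237 for Tmsb10 and between 0.131 and 0.224 for Tmsb4x. After scaling to a common spread none of the 5 was called, and centring on plate medians, under which 1.12% of all probes were called lower, left -0.59 for Tmsb10 (adjusted p = 0.13). Centred, the differences were -0.73 for Gap43 (adjusted p = 0.00781 by limma) and -0.83 for Tmsb4x (adjusted p = 0.0118). The order of the genes by this difference thus depended on the centring.

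**Figure D2:**
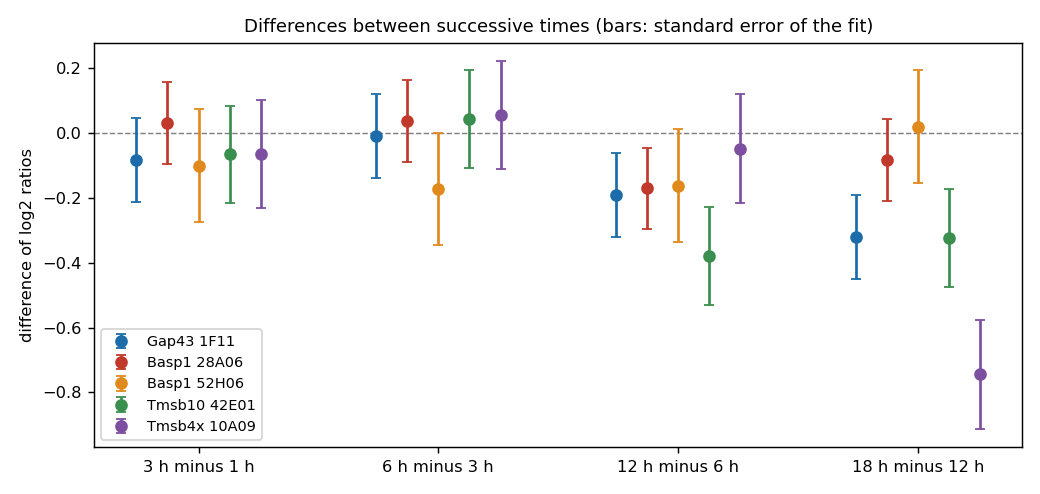
Difference of mean log2 ratios between successive times (vertical axis) for the 4 steps (horizontal axis) and the 5 member probes. Points are the estimates and bars the standard error of the fit. The step of -0.74 of Tmsb4x between 12 h and 18 h is the deepest of the 20.

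Set step by step, the fall of Tmsb4x lay between 12 h and 18 h, at -0.74 (standard error 0.17, adjusted p = 0.0578 by limma, or 0.0399 when centred on plate medians). With a common spread its adjusted p was 0.596, with array weights 0.229 and with a replicate block 0.095. Without a replicate number it was 0.194 to 0.284, and with plate centring and a common spread together 0.453. In that step 0.421% of all probes were called lower as deposited, and 0.381% when centred. Gap43 had -0.19 between 6 h and 12 h (adjusted p = 0.604) and -0.32 between 12 h and 18 h (adjusted p = 0.264). Tmsb10 had -0.38 (adjusted p = 0.413) and -0.32 (adjusted p = 0.346) in the same steps. For Basp1, 28A06 had -0.17 and -0.08 in these steps and 52H06 had -0.16 and 0.02, with adjusted p-values of 0.637 and 0.813, and of 0.763 and 0.981. Between 6 h and 12 h 0.0200% of all probes were called lower, between 3 h and 6 h 0.0199% and between 1 h and 3 h 0.00%, and no member passed in these steps. The 3 probes whose arrays did not overlap between 18 h and 12 h, of Gap43, Tmsb10 and Tmsb4x, compare with 7.03% of all probes. A straight line over hours gave slopes on the log2 scale of -0.034 per hour for Gap43 (adjusted p = 0.00586 by limma), -0.044 for Tmsb10 (adjusted p = 0.00412) and -0.041 for Tmsb4x (adjusted p = 0.0325), against 2.94% of all probes called with a falling slope. Basp1 had slopes of -0.013 (adjusted p = 0.225) and -0.025 (adjusted p = 0.0989). The slopes of Gap43, Tmsb10 and Tmsb4x had adjusted p-values of 0.132, 0.115 and 0.203 with all arrays of replicate 1 left out. On a log2 scale of hours none of these 3 slopes was called, with adjusted p-values of 0.0671 for Gap43, 0.0671 for Tmsb10 and 0.261 for Tmsb4x. Asked for any difference among the 5 means, the F test called 1.85% of all probes and no member, with adjusted p-values from 0.0556 for Tmsb10 to 0.649 for Basp1 28A06. Unadjusted, p was under 0.05 for 3 of the 5, at 0.00278 for Gap43, 0.00105 for Tmsb10 and 0.00119 for Tmsb4x. Centred on plate medians the F test called 1.41% of all probes and 2 of the 5 members, Gap43 (adjusted p = 0.0305) and Tmsb4x (adjusted p = 0.0363), and Tmsb10 had an adjusted p of 0.189.

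In order of depth at 18 h stood Tmsb10 at -1.002, Tmsb4x at -0.85, Gap43 at -0.59, Basp1 52H06 at -0.50 and Basp1 28A06 at -0.31. Tmsb10 and Tmsb4x overlapped, with a difference on the same arrays of -0.15 ± 0.22 (SD, n = 3 arrays, exact sign permutation p = 0.5). Tmsb4x was below Gap43 on 3 of 3 arrays, by 0.26 on the log2 scale, with no overlap. Gap43 and Basp1 52H06 overlapped, with Gap43 lower by 0.09 on average. A design of 3 arrays cannot give a p under 0.25 in this two-sided test, so none of these neighbours can pass 0.05. Centring on plate medians changed the order to Tmsb4x at -0.92, Tmsb10 at -0.86, Gap43 at -0.68, Basp1 28A06 at -0.44 and Basp1 52H06 at -0.17. Centred, Tmsb10 and Gap43 overlapped, with Tmsb10 lower on 2 of 3 arrays (exact sign permutation p = 0.5).

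**Figure D3:**
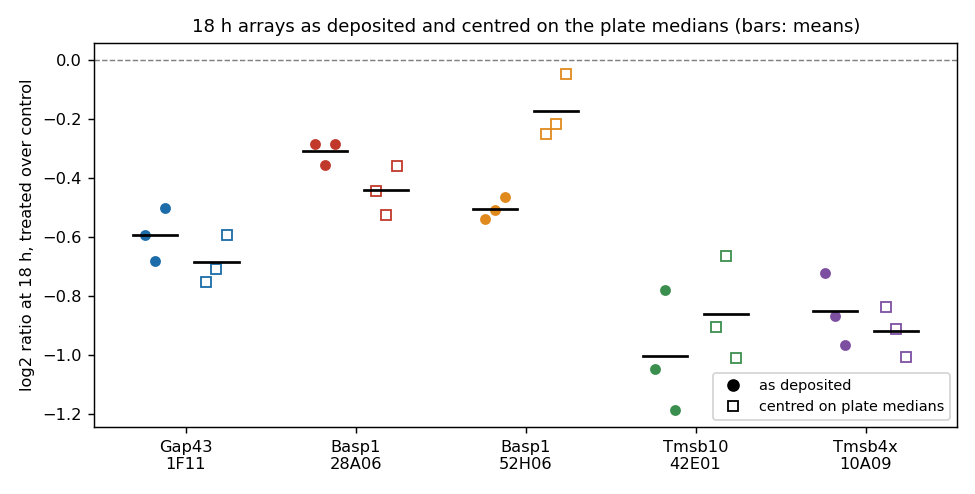
Log2 of the 18 h ratio, treated over control (vertical axis), for the 5 member probes (horizontal axis), as deposited (filled circles) and centred on the median of the probe's plate (open squares). Points are single arrays and bars the means. Basp1 52H06 moves from a mean of -0.50 to -0.17, and the other 4 means stay at -0.44 or below when centred.

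Over the 15 arrays, the log2 ratios of Tmsb10 and Tmsb4x correlated at r = 0.83, those of Gap43 and Tmsb10 at r = 0.77, and those of Gap43 and Tmsb4x at r = 0.69. The 3 arrays of 18 h carry much of these values. Over the 12 arrays of 1 to 12 h, r was 0.50 for Tmsb10 and Tmsb4x, 0.47 for Gap43 and Tmsb10, and -0.33 for Gap43 and Tmsb4x. Arrays of a time share their treatment and the pooled values are given as a description only.

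Of 4019 other genes with a ratio on every array, Atf3, a transcription factor of injured neurons, was most like Gap43 over the 15 arrays (r = 0.94, 0.97 when centred on plate medians, and 0.80 over the 12 arrays of 1 to 12 h). Its fall was deeper, to -2.90 at 18 h. Stmn4, a stathmin that binds tubulin, followed at r = 0.94, but stood at place 347 when centred, at r = 0.55. Ccn1, a secreted matrix protein, came next at r = 0.92, with a mean of -1.14 at 18 h. Basp1 was averaged over its 2 probes, which correlated at only r = 0.47. The likest to this average were Defa5, a defensin, at r = 0.84, Unc5b, a netrin receptor, at r = 0.83, and Adrb3, an adrenergic receptor, at r = 0.83. When centred, Defa5 stood at place 7, Unc5b at place 5 and Adrb3 at place 1. For Tmsb10 they were Grik1, a kainate receptor subunit, at r = 0.92, Vom2r44, of the large family of vomeronasal receptors, at r = 0.91, and Gadd45a, a stress and growth arrest gene, at r = 0.90. All 3 stayed within the 4 likest of Tmsb10 when centred. For Tmsb4x they were Tubb2b, a beta tubulin, at r = 0.94, Msn, or moesin, which links actin to the membrane, at r = 0.92, and S100a4, a calcium-binding protein, at r = 0.90. Tubb2b and Msn kept the places 1 and 2 when centred, and their means at 18 h were -0.69 and -0.47.

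Other genes of growth cones and axon growth were called lower at 18 h as deposited, but not under every scaling. Of 25 listed genes, 21 were measured by 22 probes, and 9 of the 22 probes fell and 0 rose by limma, with 2 above 0 at an unadjusted p under 0.05, beside 11.3% lower and 10.6% higher of all probes. With a common spread 4 of the 22 were lower, and 0 were with plate centring and a common spread together or from the 18 h arrays alone. Each of these settings also called fewer of all probes than as deposited. The median was -0.18, against 0.01 over all probes. Pcp4, a calmodulin-binding peptide, was at -1.03 (adjusted p = 0.000251 by limma), Stmn4 at -0.71 (adjusted p = 0.000414), Sprr1a, a small proline-rich protein of injured neurons, at -1.58 (adjusted p = 0.00209), and Stmn2, a stathmin of the growth cone, at -0.51 (adjusted p = 0.00597). The probe of Sprr1a was already at -0.76 at 1 h. The probes of Pcp4, Stmn4 and Stmn2 all came from plate 43, whose median was -0.53 at 18 h, the lowest of 53 plates. Centred on the plate medians, Pcp4 was at -0.49 (adjusted p = 0.0387 by limma) and Sprr1a at -1.25 (adjusted p = 0.00879). Stmn4 was then at -0.17 (adjusted p = 0.297) and Stmn2 at 0.02 (adjusted p = 0.932). The centred list had 6 probes lower and 5 higher, beside 10.1% lower and 9.97% higher of all probes, and its median was -0.0086. Without array 3 of 18 h, 4 probes of the list were lower, and between 18 h and 1 h 2 probes were lower. Under plate centring Gap43, Tmsb10 and Tmsb4x were at -0.68, -0.86 and -0.92, and Basp1 was at -0.44 (28A06) and -0.17 (52H06). The difference between the 4 genes and this list was not tested.

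**Figure D4:**
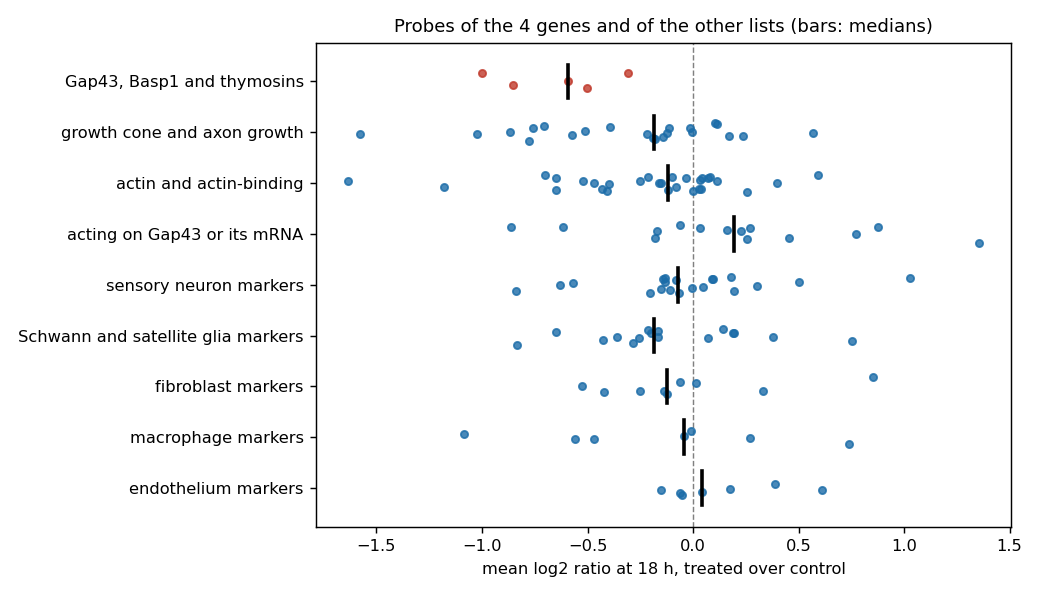
Mean log2 of the 18 h ratio, treated over control (horizontal axis), for the probes of the 4 genes and of 8 other lists (vertical axis). Points are probes and bars medians. Values are as deposited, and the 4 genes and the lists were chosen with earlier results known. The 5 probes of the 4 genes lie between -1.002 and -0.31. The other lists are larger, with 7 to 29 probes each, and each has probes on both sides of 0.

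Among 57 listed genes of actin and its binding proteins, 27 were measured by 29 probes at 18 h, of which 7 fell and 1 rose, beside 11.3% lower and 10.6% higher of all probes, with a median of -0.12. With a common spread 1 was lower and 0 higher, and with array weights 3 were lower and 0 higher. Both settings also called fewer of all probes. Arpc1b, a subunit of the Arp2/3 complex that branches actin filaments, was at -0.43 (adjusted p = 0.00518 by limma), and Msn was at -0.47 (adjusted p = 0.00733). Ezr, or ezrin, a relative of moesin, was the member that rose, to 0.59 (adjusted p = 0.00596). The probes of Add2, the beta adducin of the spectrin and actin network, were unequal, with 42E04 at -1.18 (adjusted p = 0.00108) and 42E03 at 0.04 (adjusted p = 0.88). Centred on plate medians 6 of the 29 probes were lower and 4 higher, beside 10.1% lower and 9.97% higher of all probes. Without array 1 of 18 h, 3 were lower. Of 21 listed genes whose products act on Gap43 or its mRNA (kinases, phosphatases, calmodulins and RNA-binding proteins), 13 were measured by 14 probes, and 3 rose and 2 fell, beside 10.6% higher and 11.3% lower of all probes, with a median of 0.20. With a common spread 1 was higher and 2 lower, and with plate centring and a common spread together 0 were called, where fewer of all probes were called too. Both probes that fell were of Calm3, a calmodulin gene, at -0.62 (adjusted p = 0.00045 by limma) and -0.86 (adjusted p = 0.00128), and the probes were at -0.38 and -0.37 at 1 h. Centred on plate medians, 41G11 of Calm3 was at -0.25 (adjusted p = 0.0694) and 51E05 at -0.54 (adjusted p = 0.025). The centred list had 1 probe lower and 2 higher, beside 10.1% lower and 9.97% higher of all probes. Ptbp1, an RNA-binding protein, was at 0.88 (adjusted p = 0.00356) and Prkcz, an atypical protein kinase C, at 0.77 (adjusted p = 0.00549). Elavl4, or HuD, which stabilizes the Gap43 mRNA, was at 0.45 ± 0.47 (SD, n = 3, adjusted p = 0.0466), or 0.22 (adjusted p = 0.362) when centred. Without array 1 of 18 h, 1 probe of this list was higher.

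Markers of the cell types of a DRG were called at 18 h in both directions. Of all probes, 11.3% were called lower and 10.6% higher as deposited, and 10.1% lower and 9.97% higher when centred on plate medians. Of 20 probes of sensory neuron markers, 2 rose and 2 fell, with values between -0.84 and 1.03 and a median of -0.07. Uchl1, an enzyme abundant in neurons, was at -0.84 (adjusted p = 0.00117 by limma) and Ntrk2, the BDNF receptor, at -0.63 (adjusted p = 0.00165). The neurofilament gene Nefl was at 1.03 ± 1.00 (SD, n = 3, adjusted p = 0.0271) at 27F06, which was already at 0.89 at 1 h. Its probe 52A12 was at -0.01 (adjusted p = 0.969), which became 0.32 (adjusted p = 0.045) when centred on plate medians. Scn11a was at 0.30 (adjusted p = 0.0388 by limma), or 0.17 (adjusted p = 0.214) when centred, and was at 0.46 at 1 h. When centred, 2 neuron probes were higher and 3 lower. Of 16 probes of Schwann cell and satellite glia markers 2 rose and 4 fell, between -0.83 and 0.75, with a median of -0.18, and when centred 1 was higher and 3 lower. Cnp, an enzyme of myelinating cells, was at -0.65 (adjusted p = 0.000312), both probes of Ngfr, the p75 neurotrophin receptor, fell by 0.83 and 0.43 on the log2 scale, and Kcnj10, a potassium channel of satellite glia, was at 0.75 (adjusted p = 0.00148). Of 9 probes of fibroblast markers 1 rose and 2 fell, between -0.53 and 0.85, with a median of -0.13. Col1a1 of collagen was at -0.53 on a probe and -0.14 on another, and Dcn, or decorin, was at -0.42 (adjusted p = 0.00757), or -0.28 (adjusted p = 0.0756) when centred, which left 1 probe lower. The probe that rose was of Pdgfra, at 0.85 ± 0.89 (SD, n = 3, adjusted p = 0.0173 by limma), or 0.93 (adjusted p = 0.013) when centred. Of 7 probes of macrophage markers 1 rose and 1 fell, between -1.08 and 0.74, with a median of -0.04. The complement gene C1qb was at 0.74 and the lysozyme gene Lyz2 at -0.56, or -0.27 (adjusted p = 0.332) when centred, which left 0 lower, with 1 at an unadjusted p under 0.05. Of 7 probes of endothelium markers limma called 0, with 2 at an unadjusted p under 0.05, the values ran between -0.15 and 0.61, and the median was 0.04. Centred, 2 were called higher, Flt1, a VEGF receptor, at 0.50 (adjusted p = 0.0258) and Tek, the angiopoietin receptor, at 0.50 (adjusted p = 0.0318). The part of these markers in the fall of Gap43, Basp1, Tmsb10 and Tmsb4x was not tested.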

How the data were processed

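The deposited values are linear ratios of treated (Cy5) over control (Cy3), 1 per probe and array, which the authors made from spotted oligonucleotide arrays labelled with dendrimers. How the authors corrected background, normalized and filtered is not given in the sources used here. No scanner intensities were read. The log2 of the ratio was taken with no pseudocount and no further centring. Array medians lay between ratios of 0.997 and 1.02.

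Probes were named through the platform annotation, in which 4423 probes had 1 symbol, 2 had several and 663 had none. The gene identifiers of 4375 probes matched the GRCr8 gene table, with no symbol changed. Testing a probe at a time required ratios on 2 of its 3 arrays. The model was fitted with limma 3.58.1 under R 4.3.3 (lmFit and eBayes, 1 mean per time, all 15 arrays sharing the estimate of spread), two-sided, with Benjamini-Hochberg adjustment over all probes tested and a threshold of 0.05. Each probe was its own test, also within a gene, and lists were counted by probe. Likeness was the Pearson correlation of gene means over the 15 arrays. Neighbours at 18 h were compared with an exact sign permutation test. Precision is limited by there being 3 arrays per time.

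The members and lists were chosen with earlier results of these data known. The named genes were all member probes, up to 4 genes per list, those of smallest p at 18 h, of which some are left out, and the 3 genes likest to each member. The alternatives were other centrings, a common spread, array weights, a replicate block, the arrays of a time alone, the methods' t-test, a stricter filter and leaving out arrays. Leaving out 3 arrays of wide spread, and plate centring with a common spread, were added after seeing the data. The fit was tested on simulated data in which each probe had the same spread on all arrays. The wider spread of the 18 h arrays was therefore not covered by that test.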

Additional observations from a re-analysis of the deposited data

Results flagged for a closer look

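The effect of dbcAMP differed between 18 h and 1 h for 3 of the 5 member probes, by limma's test of the difference itself. In that test 1.56% of all probes were called lower. For Gap43 the difference was -0.61 (standard error 0.13, adjusted p = 0.0236), for Tmsb10 it was -0.73 (standard error 0.15, adjusted p = 0.0211) and for Tmsb4x it was -0.80 (standard error 0.17, adjusted p = 0.0211). In all 3, every array of 18 h was below every array of 1 h, as for 13.3% of all probes. All arrays of 18 h were of wide spread and those of 1 h were not. The part of this spread in the differences was not tested beyond the scaling to a common spread. That scaling left differences of -0.41, -0.30 and -0.49, none of them called (adjusted p = 0.264, 0.589 and 0.297 by limma). Plate centring ended the call of Tmsb10 (adjusted p = 0.13), and leaving out any replicate number ended all 3.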

How the results depend on the processing

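The member probes stayed below 0 at 18 h under every alternative run, and no called value of a member probe changed sign under any of them. Among the other genes named, Stmn2 was called at -0.51 as deposited and stood at 0.02 when centred on plate medians. Of the 5 probes lower at 18 h, 3 were lower after scaling to a common spread, where Basp1 was at -0.20 (28A06) and -0.33 (52H06), and 3 with plate centring and a common spread together, where Basp1 was at -0.30 and -0.11. Fitted on its own, 18 h had 1 probe lower, that of Tmsb10, and the means were unchanged by construction, at -0.59 for Gap43, -0.31 and -0.50 for Basp1 and -0.85 for Tmsb4x. By the methods' t-test after adjustment 0 were called, with the same means and -1.002 for Tmsb10. Of all probes, that test called 1 at 18 h and 0 at each other time. Array weights ended the call of Basp1 28A06, at -0.31, and plate centring that of Basp1 52H06, at -0.17. Leaving out 1 array of 18 h left 3 to 4 probes lower, with Basp1 28A06 between -0.32 and -0.28 and 52H06 between -0.52 and -0.49.

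At 12 h the count of 2 became 1 with plate centring, a common spread, both together or array weights. It became 0 from the arrays of 12 h alone or by the methods' t-test after adjustment, and 1 to 2 without 1 array. Without the 3 wide arrays 12 h could not be tested. At 3 h, 1 probe (Tmsb10) was lower with a common spread or array weights, and at 6 h 1 (Basp1 52H06) with array weights.

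The count of 3 differences between 18 h and 1 h became 0 with a common spread (-0.41 for Gap43, -0.30 for Tmsb10 and -0.49 for Tmsb4x), 0 with plate centring and a common spread together (-0.52, -0.23 and -0.50), and 0 to 0 without any replicate number (between -0.67 and -0.53, -0.81 and -0.62, and -0.94 and -0.70). Plate centring alone ended the call of Tmsb10, at -0.59. The 3 slopes became 0 with a common spread, 1 with plate centring and a common spread together, and 0 to 2 without a replicate number. On a log2 scale of hours the 3 slopes were -0.13 for Gap43, -0.16 for Tmsb10 and -0.13 for Tmsb4x, none called.

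Over all probes the calls at 1, 3, 6, 12 and 18 h were 118, 145, 212, 430 and 1101. With a common spread 321, 438, 256 and 419 were called at 1, 3, 12 and 18 h, with array weights 370, 560, 180 and 664, and with plate centring and a common spread together 237, 351, 174 and 275. From the arrays of a time alone 353, 10, 5 and 183 were called at 3, 6, 12 and 18 h. Without the 3 wide arrays 179 were called at 1 h. Without 1 array the calls were 24 to 44 at 1 h, 53 to 79 at 3 h, 103 to 149 at 6 h and 142 to 543 at 12 h.

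Replicate numbers did not pair the arrays. The deviations of same-numbered arrays from their time means correlated between -0.06 and 0.06 over 30 pairs, and 2 of 15 arrays correlated best with their own number. The fit with a replicate block called 1088 probes at 18 h and the same 5 member probes, and gave Gap43 a difference of -0.61 between 18 h and 1 h with an adjusted p = 0.0515.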
